A study of Mus musculus with 4 samples.

Results

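The chemokines *Ccl3*, *Ccl4*, *Ccl5*, *Xcl1*, *Ccl20*, *Cxcl2* and *Cxcl3* were followed across the T cell, innate lymphoid and myeloid barcodes of the small intestinal lamina propria. These 7 genes were taken from the 31950 gene IDs that both gene expression libraries list, matched by gene ID, and stromal barcodes served as background. The data are single-cell RNA-Seq made with a 5′ kit, and the values are UMIs, which are counts of tagged transcript molecules. One library came from WT mice and the other from A20ZF7 mice, which carry point mutations in zinc finger 7 of A20, the motif that binds linear (M1) ubiquitin. The allele is a germline knock-in, so every cell type carries it, and transcript counts cannot check a point mutation. Both libraries pooled 2 animals aged 12 weeks, and 60000 cells each were collected after negative selection for T cells and innate lymphoid cells (ILCs). That selection shapes every share of cells given here. Each genotype has 1 library, so nothing here was tested between genotypes, and the 95% intervals in parentheses reflect counting error alone.

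Chemokines are small secreted proteins that direct the migration of cells bearing the matching receptor. *Ccl3*, *Ccl4* and *Ccl5* are made by activated cytotoxic T cells, innate lymphocytes and myeloid cells and attract T cells and monocytes, and *Ccl3* and *Ccl5* bind *Ccr1*. *Xcl1*, made by activated CD8 T cells and NK cells, attracts cross-presenting dendritic cells through *Xcr1*. *Ccl20* attracts *Ccr6*-bearing B cells, dendritic cells and Th17 cells, and Th17 cells also make it. *Cxcl2* and *Cxcl3* attract neutrophils through *Cxcr2*. A20 is an inhibitor of NF-κB signaling, and several of these genes are known NF-κB targets.

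The genes lie in 4 places of the mouse genome (GRCm38, positions from GENCODE). *Ccl3* (ENSMUSG00000000982, chr11:83647844-83649355), *Ccl4* (ENSMUSG00000018930, chr11:83662584-83664683) and *Ccl5* (ENSMUSG00000035042, chr11:83525778-83530518) are neighbors in the CC chemokine cluster. *Cxcl2* (ENSMUSG00000058427, chr5:90903871-90905938) and *Cxcl3* (ENSMUSG00000029379, chr5:90786103-90789600) share another cluster. *Xcl1* (ENSMUSG00000026573, chr1:164931644-164935527) and *Ccl20* (ENSMUSG00000026166, chr1:83116766-83119167) lie apart from each other on the same chromosome. The promoter windows are shown because the NF-κB axis is the one that A20 acts on. RefSeq promoters of 300 bases (GRCm38.p6, 250 before the start site to 50 after it) were at hand for 5 of the 7 genes, *Ccl4* and *Ccl5* being without an entry. They were searched on both strands for the κB motif, of which 3 of the 5 held a match, compared with 8.46% of 32851 mouse promoters. Matches on opposite strands overlap in *Cxcl2* and *Cxcl3*, since the motif is nearly its own reverse complement there. The lines give 60 bases, from 110 to 51 bases before the start site, on the strand of the gene and 5′ to 3′, with letters of a match in capitals.
Ccl20 (chr1:83116656-83116715, + strand): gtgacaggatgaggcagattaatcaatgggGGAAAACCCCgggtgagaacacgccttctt
Cxcl2 (chr5:90903789-90903848, + strand): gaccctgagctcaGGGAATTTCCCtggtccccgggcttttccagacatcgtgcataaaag
Cxcl3 (chr5:90785991-90786050, + strand): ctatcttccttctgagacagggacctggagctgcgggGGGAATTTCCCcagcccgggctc
Ccl3 (chr11:83649429-83649488, - strand): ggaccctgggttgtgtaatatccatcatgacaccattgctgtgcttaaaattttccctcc
Xcl1 (chr1:164935573-164935632, - strand): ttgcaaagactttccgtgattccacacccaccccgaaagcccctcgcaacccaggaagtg
In *Ccl20* the match reads on the opposite strand, from -80 to -71. A match describes letters only and is no evidence of binding, and the windows without one say nothing of the factor.

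The libraries differed in size and in what they held. After filtering, 14722 WT and 43162 A20ZF7 cells remained, whose median depths were 1060 and 853 UMIs. Joint clustering gave 2233 WT and 16440 A20ZF7 T cell barcodes, 3136 and 5304 innate lymphoid barcodes, 384 and 1929 myeloid barcodes, and 7754 and 15869 stromal barcodes. In both libraries 913 cell barcodes occur, and WT barcodes with both hashtags were removed while the A20ZF7 library had no usable hashtags. T cell RNA was found outside T cells: a UMI of a T cell receptor constant or CD3 gene was present in 21.8% of WT and 50.2% of A20ZF7 stromal barcodes. For every member, the stromal level or the multiple of it is therefore given beside the level in lymphocytes. The part of the stromal level in each difference was not tested. Fewer expressing cells and less RNA per cell were separated only by the shares of barcodes with a UMI, after each barcode was thinned to 500 UMIs. Counts per positive barcode are given without thinning, so depth enters them.

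The T cell barcodes were split into CD8 T-like (1237 WT, 2134 A20ZF7), Th17-like (165, 5228), Treg-like (105, 2086), dividing (159, 2344) and other T cells (567, 4648). Innate lymphoid barcodes were ILC2-like (1709, 2120) or ILC3-like (1427, 3184), and myeloid barcodes were macrophage-like (294, 1588) or dendritic-like (90, 341). The CD8 T-like, ILC3-like and dendritic-like labels need care. The CD8 T-like group had a *Cd8a* or *Cd8b1* UMI in 26.7% (330 of 1237) of WT and 49.1% (1047 of 2134) of A20ZF7 barcodes, and *Cd4* in 10.3% and 8.81%, so it is a mixed cytotoxic group whose make-up differed between libraries. T cell UMIs were found in 63.2% of WT and 59.4% of A20ZF7 ILC3-like barcodes, which is why values in barcodes without them are also given. The dendritic-like group is 1 cluster led by *Ly6d*, *Siglech*, *Irf8* and *Pld4*, genes known from plasmacytoid dendritic cells, while *Xcr1*, *Ccl17* and *Ccl22*, known from other dendritic cells, lay mostly in the macrophage-like group. Both names are thus those of the marker lists.

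A member was counted as different when its CPM (the UMIs of the gene over all UMIs of the same barcodes, on the usual CPM scale) differed at least 2-fold, with 20 UMIs or more in the higher genotype. In T cell barcodes, 2 members were higher in A20ZF7 (*Ccl20* and *Cxcl3*) and 3 were lower (*Ccl3*, *Ccl4* and *Xcl1*). Over all 10771 genes with enough UMIs, 5.41% were higher and 1.75% lower by the same rule. In innate lymphoid barcodes *Ccl5* and *Ccl20* were higher and *Xcl1* and *Cxcl2* lower, against 4.81% and 2.85% of 10256 genes. In myeloid barcodes *Ccl5*, *Ccl20* and *Cxcl3* were higher and *Xcl1* lower, against 8.38% and 1.84% of 8100 genes. The stromal barcodes gave the same 3 higher members as myeloid barcodes and the same lower one, against 7.91% and 6.19% of 14268 genes. By cell group the members past 2-fold were as follows. Th17-like barcodes had 1 member higher (*Ccl5*) and none lower, against 5.35% and 0.239% of all genes tested there. Treg-like barcodes had *Ccl5* higher and *Cxcl2* lower (4.71% and 0.267%), and CD8 T-like barcodes *Ccl20* higher and *Xcl1* lower (3.45% and 1.8%). Dividing T cells had *Ccl20* higher and *Xcl1* and *Cxcl2* lower (5.44% and 0.866%), and other T cells *Ccl5*, *Ccl20* and *Cxcl3* higher and *Xcl1* lower (7.88% and 0.952%). Among WT barcodes that a hashtag gave to a mouse, *Cxcl2* UMIs of Treg-like and dividing barcodes came nearly all from mouse 2. ILC2-like barcodes had *Ccl5*, *Ccl20* and *Cxcl3* higher and *Xcl1* lower (4.77% and 3.68%). ILC3-like barcodes had *Ccl5* and *Ccl20* higher and *Ccl3*, *Xcl1* and *Cxcl2* lower (5.56% and 2.46%). Macrophage-like barcodes had *Ccl20* and *Cxcl3* higher and *Xcl1* lower (7.69% and 1.39%), and dendritic-like barcodes *Ccl5* and *Ccl20* higher and none lower (22.6% and 2.28%).

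The median A20ZF7 over WT ratio of the 7 members was 0.765 in T cell barcodes, where that of all genes was 1.08. It was 0.780 against 1.01 in innate lymphoid barcodes and 1.18 against 1.17 in myeloid barcodes.

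The make-up of the T cell class differed between the libraries, and its part in these counts was not tested. CD8 T-like barcodes were 1237 of 2233 WT T cell barcodes and 2134 of 16440 A20ZF7 T cell barcodes. When the 5 A20ZF7 T cell clusters were weighted by their WT shares of UMIs, which was chosen after seeing the data, 1 member (*Xcl1*) stayed past 2-fold, in place of 5. The ratios were then 0.701 for *Ccl3*, 0.625 for *Ccl4*, 1.83 for *Ccl5*, 0.207 for *Xcl1*, 1.74 for *Ccl20*, 0.550 for *Cxcl2* and 1.59 for *Cxcl3*. The same weighting moved the innate lymphoid and myeloid ratios less, with *Ccl5* at 2.84 and 2.36 and *Xcl1* at 0.185 and 0.335.

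The hashtag calls also decided some results. *Ccl5* and *Xcl1* were lower in uncalled than in called WT barcodes in every class. *Ccl5* was 251 and 1347 CPM in innate lymphoid barcodes (1071 and 2065 barcodes) and 163 and 1021 CPM in stromal barcodes (4899 and 2855 barcodes). Every member was lower in uncalled stromal barcodes. *Cxcl2* was instead higher in uncalled T cell (52.38 and 20.84 CPM), innate lymphoid and myeloid (440.3 and 236.1 CPM) barcodes. *Ccl20* and *Cxcl3* in T cell barcodes and *Ccl3* and *Ccl4* in myeloid barcodes were also higher in uncalled ones. With the called WT barcodes of both mice alone, which was chosen after seeing the data, *Ccl5* was not past 2-fold in myeloid barcodes (ratio 1.983), and *Ccl3* was lower past 2-fold in innate lymphoid barcodes (ratio 0.473). When the barcodes called for 1 mouse were removed and the uncalled ones kept, the counts past 2-fold stayed at 5, 4 and 4 for either mouse. Values for 1 mouse alone leave out the other mouse and the uncalled barcodes together. From the called barcodes of mouse 2 alone, *Ccl5* was no longer past 2-fold in innate lymphoid (ratio 1.996) and myeloid (ratio 1.745) barcodes, nor *Cxcl2* in innate lymphoid barcodes (ratio 0.591), while *Cxcl2* passed in myeloid barcodes (ratio 2.28). From those of mouse 1 alone, *Cxcl2* in T cell barcodes rested on 3 WT UMIs, with a ratio of 5.30. Innate lymphoid *Ccl3* passed 2-fold from either mouse alone, at 0.4997 from mouse 2 and 0.441 from mouse 1, where the ratio over all barcodes was 0.529. Myeloid *Xcl1* went under 20 UMIs from either mouse alone, at ratios of 0.274 and 0.234.

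**Figure D1:**
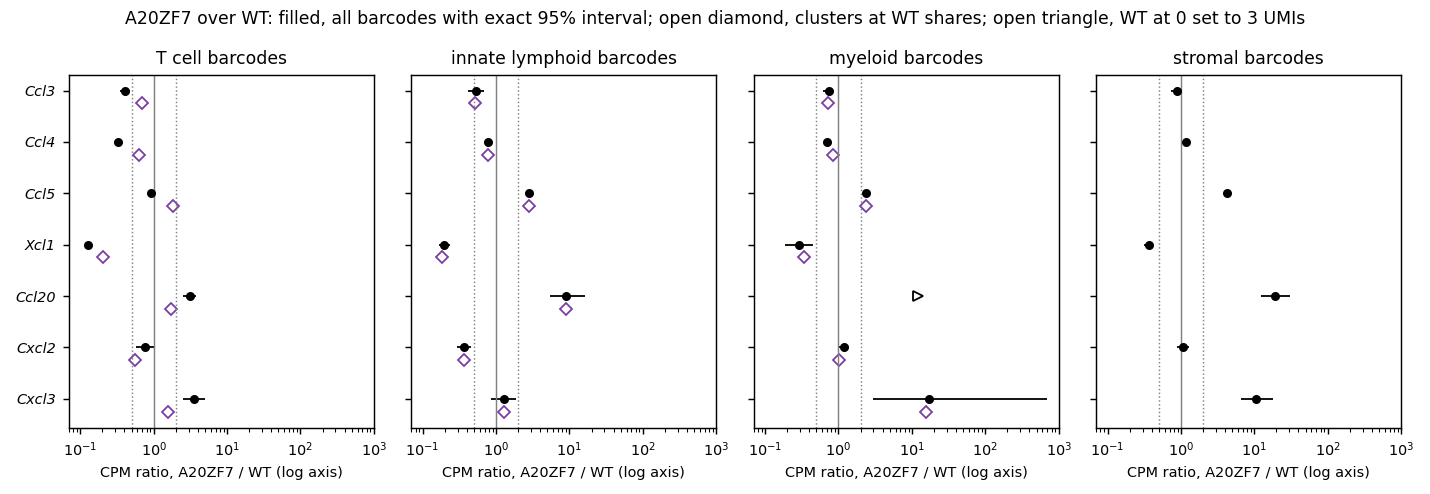
CPM ratio of each chemokine, A20ZF7 over WT, on a log axis, in 4 classes of barcodes. Filled points are all barcodes of the class with exact 95% intervals, open diamonds the same with A20ZF7 clusters at WT shares, an open triangle a WT count of 0 set to 3 UMIs, and dotted lines 2-fold. In T cell barcodes the diamonds lie nearer to 1 than the points for 5 of the 7 genes, and *Xcl1* lies left of the 2-fold line in every panel.

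*Ccl5* UMIs were found in every lymphocyte and myeloid group, and in background barcodes too. In CD8 T-like barcodes the WT level was 8372 CPM (8207–8540) and the A20ZF7 level 14460 CPM (14290–14640), a ratio of 1.73 (1.69–1.77). The next group in order, other T cells, stood at 2753 and 6334 CPM, a ratio of 2.30 (2.17–2.44). All other lymphocyte and myeloid groups lay between 523 and 1305 CPM in WT and between 2258 and 4117 CPM in A20ZF7. Against droplets of 10 to 100 UMIs, these other groups were between 0.333 and 0.831 times in WT, thus under that background. In A20ZF7 they were between 1.199 and 2.187 times. CD8 T-like barcodes were 5.33 and 7.68 times and other T cells 1.75 and 3.36 times. The part of the droplet background was not tested. Stromal barcodes had 538 CPM (524–552) for WT and 2282 CPM (2261–2303) for A20ZF7, a ratio of 4.24 (4.12–4.36). The CD8 T-like level was thus 15.6 times the stromal level in WT and 6.34 times in A20ZF7, while the Th17-like level was 1.83 and 1.38 times, and the dendritic-like level (0.972 and 0.989 times) lay at the stromal level in both libraries. The stromal class sat in different clusters by genotype, of which one held 1900 WT and 73 A20ZF7 barcodes and another 551 and 6336. *Ccl5* was 402 and 739 CPM in the first (ratio 1.84, 1.38–2.40) and 744 and 2267 CPM in the second (ratio 3.05, 2.80–3.32). WT stromal barcodes called for a mouse had 1078 and 969.8 CPM. The part of cluster make-up and of the hashtag calls in the stromal ratio was not tested.

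Although *Ccl5* was higher in A20ZF7 in each T cell group, it was 5306 CPM (5210–5403) in WT and 4946 CPM (4910–4982) in A20ZF7 over all T cell barcodes, a ratio of 0.932 (0.914–0.9505). In dividing T cells the A20ZF7 level lay at the stromal level, at 0.9895 times (0.967–1.012), where the WT level was 2.30 times the stromal one. After thinning, 46.1% of WT and 43.7% of A20ZF7 T cell barcodes held a *Ccl5* UMI, with 3748 shallower A20ZF7 barcodes left out. In CD8 T-like barcodes the shares were 62.0% (59.2–64.7) and 83.2% (81.3–85.0). The stromal shares were 9.56% and 27.1%, at median depths of 1139 and 1031 UMIs before thinning, where CD8 T-like barcodes had 830 and 730. Barcodes with *Cd8a* or *Cd8b1* and no *Cd4* UMI, however, had 13450 CPM for WT (345 barcodes) and 12280 CPM for A20ZF7 (1558 barcodes), a ratio of 0.913 (0.885–0.942). This gate ran over all T cell barcodes, and within the CD8 T-like group only 330 WT and 1047 A20ZF7 barcodes held a *Cd8* UMI, so the gate and the group cover different barcodes.

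In innate lymphoid barcodes *Ccl5* was 1032 CPM in WT and 2933 CPM in A20ZF7, a ratio of 2.84 (2.74–2.95), and 1.92 and 1.29 times the stromal level. With the stromal level taken off, the ratio was 1.32 and not past 2-fold. Against droplets of 10 to 100 UMIs, innate lymphoid *Ccl5* was 0.658 times in WT and 1.56 times in A20ZF7, and myeloid *Ccl5* 0.640 and 1.27 times. ILC2-like barcodes without a T cell UMI had 142 CPM in WT and 1318 CPM in A20ZF7, and such ILC3-like barcodes had 468 and 1318 CPM. Each of these values lies under the stromal level of the same library, and the part of this background was not tested. In myeloid barcodes *Ccl5* was 1005 and 2392 CPM, the latter 1.05 times (1.02–1.08) the A20ZF7 stromal level. With the stromal level taken off whole, the myeloid ratio turned from 2.38 to 0.236.

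*Ccl5* UMIs in stromal barcodes were concentrated in a part of them. In A20ZF7, 5482 of 15869 stromal barcodes (34.5%) had a *Ccl5* UMI, with 8.05 UMIs on average in each, and 2542 had 5 or more. In WT, 1199 of 7754 (15.5%) had one, with 4.55 on average. Positive CD8 T-like barcodes held 13.8 UMIs on average in A20ZF7 and 11.5 in WT.

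*Ccl3* and *Ccl4*, made by macrophages, dendritic cells and cytotoxic T cells, were lower in A20ZF7 T cell barcodes. *Ccl4* was 1150 CPM (1106–1196) in WT and 380.4 CPM (370.5–390.4) in A20ZF7, a ratio of 0.331 (0.315–0.347). *Ccl3* was 106 and 42.5 CPM, a ratio of 0.402 (0.346–0.470), and 5.555 and 2.56 times the stromal level. Within CD8 T-like barcodes *Ccl4* was 1791 CPM in WT and 1055 CPM in A20ZF7 (ratio 0.589, 0.553–0.628) and *Ccl3* was 178 and 105 CPM (ratio 0.591, 0.482–0.724). Neither ratio there passed 2-fold. Barcodes picked by *Cd8* UMIs had 2188 and 937 CPM of *Ccl4* (ratio 0.428, 0.393–0.467) and 192 and 92.0 CPM of *Ccl3* (ratio 0.479, 0.358–0.646).

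For *Ccl4*, the share of CD8 T-like barcodes with a UMI was alike, at 27.6% (25.1–30.2) in WT and 27.4% (25.3–29.6) in A20ZF7 after thinning. The count per positive barcode, taken without thinning, was 5.12 UMIs on average in WT and 2.50 in A20ZF7. Also without thinning, 140 of 1237 WT but 94 of 2134 A20ZF7 barcodes held 5 or more, at median depths of 830 and 730 UMIs. For *Ccl3* the shares were 7.20% and 4.75%. Stromal shares were 2.92% and 5.35% for *Ccl4* and 0.813% and 0.705% for *Ccl3*. Outside the CD8 T-like group, *Ccl4* in other T cells was 657 and 469.5 CPM, and in Th17-like, Treg-like and dividing barcodes it lay between 159.8 and 378 CPM in WT and between 205 and 331 CPM in A20ZF7, with ratios between 0.803 and 1.52. Stromal barcodes held 148 and 175 CPM.

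The highest *Ccl4* level of all groups was in dendritic-like barcodes, at 3128 CPM (2880–3391) in WT and 3018 CPM (2868–3174) in A20ZF7, a ratio of 0.965 (0.877–1.06). After thinning, 63.3% (52.5–73.3) of WT and 61.0% (55.5–66.3) of A20ZF7 dendritic-like barcodes had a *Ccl4* UMI. Macrophage-like barcodes had 1085 and 749 CPM of *Ccl4* (ratio 0.690) and the highest *Ccl3*, at 357 CPM (301–420.2) and 222 CPM (201–243.5), a ratio of 0.621 (0.514–0.755). Among macrophage-like barcodes with 2 or more C1q UMIs the ratios were 0.810 (0.714–0.921) for *Ccl4* and 0.786 (0.635–0.978) for *Ccl3*. *Ccl3* in the dendritic-like group was 166 and 205 CPM, with overlapping intervals (112–235 and 167–248).

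ILC3-like barcodes also had less of both genes in A20ZF7, with *Ccl4* at 455 and 239.7 CPM (ratio 0.526) and *Ccl3* at 65.9 and 28.0 CPM (ratio 0.425). *Ccl3* was 3.47 and 1.69 times the stromal level in ILC3-like barcodes, and 1.66 and 1.24 times in ILC2-like barcodes. In ILC3-like barcodes without a T cell UMI the ratios were 0.432 (0.340–0.548) for *Ccl4* and 0.296 (0.161–0.531) for *Ccl3*. The A20ZF7 *Ccl4* level there (156 CPM) lay under the stromal one. In ILC2-like barcodes *Ccl4* was 202 and 249.9 CPM, a ratio of 1.24 (1.08–1.42), and *Ccl3* was 31.6 and 20.6 CPM. The stromal ratio of *Ccl4* was 1.18 (1.11–1.25), and T cell UMIs were found in 50.8% of WT and 62.4% of A20ZF7 ILC2-like barcodes. Those without a T cell UMI had 62.9 and 127.6 CPM of *Ccl4*, a ratio of 2.03 (1.40–2.96). Both of these values lie under the stromal level of the same library. Over all barcodes *Ccl4* thus differed in opposite directions in the 2 ILC groups, and the difference between the groups was not tested. By WT mouse, ILC2-like *Ccl4* was 191 CPM in mouse 1 and 282 CPM in mouse 2, and the A20ZF7 value of 249.9 CPM lies between. ILC3-like *Ccl4* was 439 and 649 CPM, above the A20ZF7 value in both mice. These values cover 368 and 474 of the 1427 WT ILC3-like barcodes and leave out the uncalled ones. Over all innate lymphoid barcodes, *Ccl4* was 371 CPM in called and 169.7 CPM in uncalled WT barcodes.

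**Figure D2:**
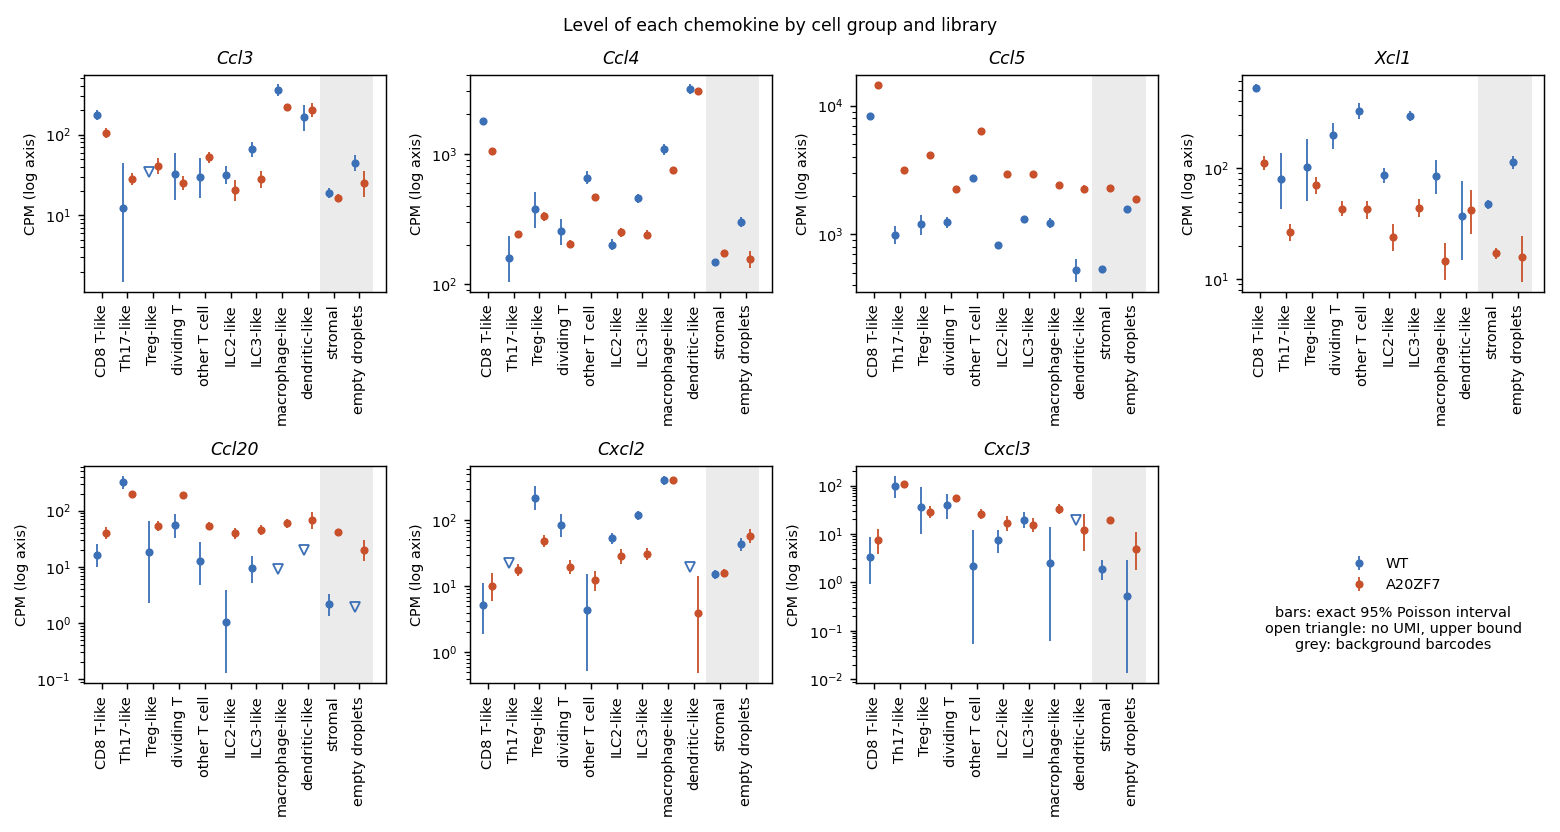
CPM of each chemokine on a log axis in 9 cell groups and in stromal barcodes and empty droplets (grey), for WT and A20ZF7, with exact 95% Poisson intervals; open triangles mark the upper bound where no UMI was found. *Ccl5* and *Xcl1* peak in CD8 T-like barcodes, *Ccl20* in Th17-like barcodes, *Cxcl2* in macrophage-like barcodes and *Ccl4* in dendritic-like barcodes, and stromal barcodes are higher in A20ZF7 for *Ccl5*, *Ccl20* and *Cxcl3*.

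*Xcl1*, the ligand of *Xcr1*, was the member that was lower in A20ZF7 most widely. T cell barcodes had 381 CPM (356–408) in WT and 49.0 CPM (45.5–52.7) in A20ZF7, a ratio of 0.129 (0.116–0.142). By group the ratio was 0.214 (0.181–0.251) in CD8 T-like, 0.131 (0.102–0.168) in other T cell, 0.220 (0.163–0.300) in dividing, 0.150 (0.121–0.184) in ILC3-like and 0.278 (0.198–0.383) in ILC2-like barcodes. In ILC2-like barcodes without a T cell UMI the ratio was 0.4115 (0.119–1.162), from 17 WT and 5 A20ZF7 UMIs. Both levels there (20.96 and 8.62 CPM) lay under the stromal ones (47.2 and 17.1 CPM). Such ILC3-like barcodes had 359 and 36.85 CPM, a ratio of 0.103. Over all ILC2-like barcodes the level was 0.765 times that of empty droplets in WT and 1.53 times in A20ZF7. The part of this background was not tested. In WT the order of levels ran from CD8 T-like (521 CPM, 480.1–564) through other T cells (324 CPM, 274–380.4) and ILC3-like barcodes (294 CPM, 267–323) to dividing T cells (196 CPM). The intervals of other T cells and ILC3-like barcodes overlap. In A20ZF7 the CD8 T-like level of 111 CPM was followed by the Treg-like level of 70.4 CPM, and the rest lay between 14.7 and 44.0 CPM. The Treg-like ratio of 0.693 (0.374–1.43) and the dendritic-like ratio of 1.12 (0.457–3.11) did not pass 2-fold, from 11 and 7 WT UMIs.

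After thinning, 13.4% (12.0–14.9) of WT and 1.55% (1.34–1.78) of A20ZF7 T cell barcodes held an *Xcl1* UMI, as did 17.4% and 4.51% of CD8 T-like barcodes. The stromal shares were 1.46% and 0.591%. Lower *Xcl1* was also found in T cell barcodes with *Cd4* and no *Cd8* UMI (239 and 31.6 CPM, ratio 0.132) and in those with 2 or more γδ receptor constant UMIs (511 and 80.5 CPM, ratio 0.158). The make-up of this γδ gate differed, since 97 of 131 WT but 113 of 557 A20ZF7 barcodes in it were CD8 T-like. Within the CD8 T-like part, *Xcl1* was 443 and 210 CPM, a ratio of 0.475 (0.275–0.799). In ILC3-like barcodes with an *Ncr1* UMI, *Xcl1* was 473 CPM in WT (115 barcodes) and 107 CPM in A20ZF7 (108 barcodes). Background barcodes moved the same way, with 47.2 and 17.1 CPM in stromal barcodes (ratio 0.363, 0.314–0.418) and 113 and 15.7 CPM in droplets of 10 to 100 UMIs (ratio 0.139, 0.0822–0.223). With either background taken off, the T cell ratio stayed at 0.0954 and 0.124.

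Immediate-early and heat shock genes, summed, were also lower in A20ZF7 in every class looked at, though *Ccl4* was not lower in all of the same barcodes. A list of 12 such genes (*Fos*, *Fosb*, *Jun*, *Junb*, *Egr1*, *Ier2*, *Nr4a1*, *Dusp1*, *Atf3*, *Hspa1a*, *Hspa1b*, *Hsph1*), chosen after the members' values had been seen, summed to 8668 CPM in WT and 5877 CPM in A20ZF7 CD8 T-like barcodes, a ratio of 0.678 (0.660–0.697). The ratio was 0.776 in all T cell, 0.801 in innate lymphoid, 0.882 in myeloid and 0.811 in stromal barcodes. *Ccl4* went the other way, higher in A20ZF7, in stromal, ILC2-like (list ratio 0.773) and Th17-like barcodes (list ratio 0.878). These genes rise during tissue dissociation as well as on activation. Their part in the lower chemokine levels was not tested.

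*Ccl20*, the ligand of *Ccr6*, was 43.5 CPM (35.3–53.2) in WT and 134 CPM (128–140.2) in A20ZF7 T cell barcodes, a ratio of 3.08 (2.51–3.83). The level within Th17-like barcodes went the other way, at 319.7 CPM (239–419) in WT and 200.4 CPM (188–214) in A20ZF7, a ratio of 0.627 (0.474–0.846). The WT value rests on 52 UMIs in 13 of 165 barcodes, and of those that a hashtag gave to a mouse, 35 UMIs were from mouse 2 and 1 from mouse 1. The Th17-like group grew from 165 of 2233 to 5228 of 16440 T cell barcodes, and after thinning 6.06% (2.94–10.9) of WT and 6.61% (5.89–7.39) of A20ZF7 Th17-like barcodes had a *Ccl20* UMI. In WT and A20ZF7 the shares thus had overlapping intervals, while the number of Th17-like barcodes differed.

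Dividing T cells had the next level, with 55.6 CPM in WT and 189 CPM in A20ZF7, a ratio of 3.39 (2.11–5.86). The WT value rests on 17 UMIs in 3 of 159 barcodes. It was 138 CPM (68.8–247) in mouse 1, whose interval holds the A20ZF7 value, and 38.2 CPM in mouse 2. All other lymphocyte and myeloid groups lay at or under 18.5 CPM in WT and between 39.8 and 67.5 CPM in A20ZF7. Stromal barcodes had 2.17 and 41.3 CPM, a ratio of 19.0 (12.5–30.6), so these other A20ZF7 groups lay between 0.965 and 1.64 times the stromal level. Th17-like barcodes stood 148 times (88.0–255) above stromal barcodes in WT and 4.86 times (4.42–5.34) in A20ZF7. The WT distance rests on few UMIs, since stromal *Ccl20* was 0.479 CPM (1 UMI) in mouse 1 and 8.10 CPM (19 UMIs) in mouse 2, where the Th17-like levels were 20.1 and 503 CPM. Innate lymphoid barcodes had 4.73 and 43.0 CPM, a ratio of 9.09 (5.46–16.2) that turned to 0.666 with the stromal level taken off. Myeloid barcodes had no UMI in WT and 61.8 CPM in A20ZF7, at least 12.2-fold higher with the WT class set to 3 UMIs. T cell barcodes with *Cd4* and no *Cd8* UMI had 93.5 and 192 CPM of *Ccl20*, a ratio of 2.05 (1.37–3.21).

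*Ccl20* UMIs were few per cell but uneven. The 1% of A20ZF7 T cell barcodes with the most held 45.1% of the UMIs of that class, and 75 of 16440 had 5 or more. Of all *Ccl20* UMIs in A20ZF7 cells, Th17-like barcodes held 28.2% (26.7–29.8), dividing T cells 21.9% and stromal barcodes 23.8%. In WT, where 154 UMIs were found in all, Th17-like barcodes held 33.8% (26.3–41.8).

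*Cxcl2* and *Cxcl3*, both neutrophil-attracting ligands of *Cxcr2*, had their highest levels in different groups. ILC3-like barcodes held a part of both in WT, with 25.8% of *Cxcl2* UMIs and 28.4% (19.9–38.2) of the 102 *Cxcl3* UMIs, beside 15.7% of *Cxcl3* UMIs in Th17-like barcodes. *Cxcl2* was highest in macrophage-like barcodes, with 409 CPM (349–476) in WT and 411 CPM (383–440.3) in A20ZF7, a ratio of 1.005 (0.849–1.196). Those with 2 or more C1q UMIs had 605 and 586 CPM, and those without had 77.4 and 241 CPM. Dendritic-like barcodes had 0 UMIs in WT and 2 in A20ZF7. After thinning, 8.84% (5.86–12.7) of WT and 13.1% (11.3–14.98) of A20ZF7 macrophage-like barcodes had a *Cxcl2* UMI, against 0.477% and 0.759% of stromal barcodes.

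In several lymphocyte groups *Cxcl2* was lower in A20ZF7. ILC3-like barcodes had 119 CPM (102–138) in WT and 31.1 CPM (24.7–38.8) in A20ZF7, a ratio of 0.262 (0.198–0.342), and 138 and 38.1 CPM where they held no T cell UMI. ILC2-like barcodes had 53.2 and 28.8 CPM (ratio 0.541). Treg-like barcodes had 221 and 48.8 CPM (ratio 0.220) and dividing T cells 85.0 and 19.8 CPM (ratio 0.232), from 24 and 26 WT UMIs. Of the WT barcodes given to a mouse, Treg-like ones held 1 UMI in mouse 1 (30.04 CPM) and 12 in mouse 2 (228.4 CPM). Dividing T cells held 0 UMIs in mouse 1 and 18 in mouse 2 (114.6 CPM). In both groups the A20ZF7 value lies between the mice, so the lower level was not seen against mouse 1. CD8 T-like and other T cell barcodes had at most 12.3 CPM in either library. Stromal barcodes held 15.3 and 16.2 CPM, with a ratio of 1.06 (0.871–1.29). Against droplets of 10 to 100 UMIs, ILC3-like, ILC2-like, Treg-like and dividing levels were 2.72, 1.22, 5.06 and 1.94 times in WT. In A20ZF7 they were 0.530, 0.490, 0.831 and 0.336 times, thus under that background. Its part was not tested. Of all *Cxcl2* UMIs, macrophage-like barcodes held 24.1% in WT and 49.5% in A20ZF7. Over all T cell barcodes *Cxcl2* was 26.3 and 20.1 CPM, with a ratio of 0.765 (0.576–1.03). Both values lay under the droplet level, at 0.601 and 0.342 times.

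*Cxcl3* was, like *Ccl20*, highest in Th17-like barcodes, with 98.4 CPM (56.2–159.7) in WT and 109 CPM (99.99–119) in A20ZF7, and overlapping intervals. Dividing T cells had 39.2 and 56.2 CPM, again with overlapping intervals. Over all T cell barcodes it was 16.8 and 58.7 CPM, a ratio of 3.499 (2.52–5.004), and stromal barcodes had 1.87 and 19.8 CPM, a ratio of 10.6 (6.66–17.7). Th17-like barcodes stood 52.5 times (25.3–108) above stromal barcodes in WT and 5.53 times (4.83–6.33) in A20ZF7. In innate lymphoid barcodes *Cxcl3* was 12.7 and 16.1 CPM, and in A20ZF7 that was 0.816 times (0.628–1.05) the stromal level. Myeloid barcodes had 1 UMI in WT and 29.1 CPM in A20ZF7, a ratio of 17.2 with an interval of 2.99 to 688.

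**Figure D3:**
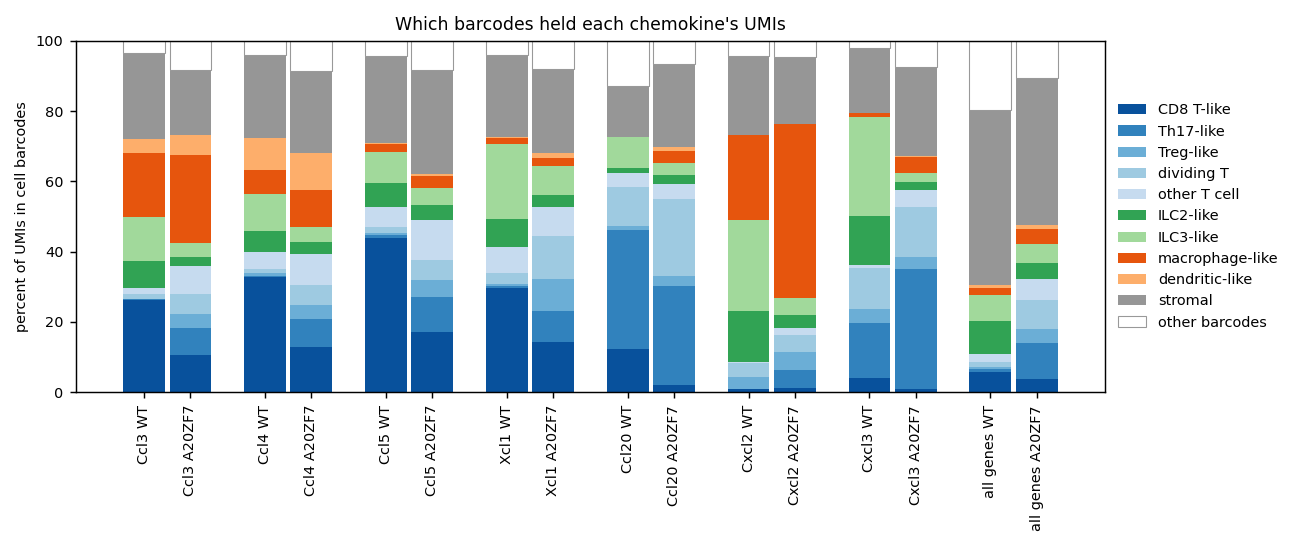
Percent of each chemokine's UMIs in cell barcodes by cell group, as stacked bars from 0 to 100, for WT and A20ZF7, with all genes at the right. CD8 T-like barcodes held 43.9% of *Ccl5* UMIs in WT and 16.98% in A20ZF7, where they were 8.40% and 4.94% of cells, and Th17-like barcodes held 28.2% of *Ccl20* and 34.1% of *Cxcl3* UMIs in A20ZF7.

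The origin of the UMIs moved with the make-up of the libraries. CD8 T-like barcodes held 43.9% of *Ccl5*, 32.7% of *Ccl4*, 29.7% of *Xcl1* and 26.3% of *Ccl3* UMIs in WT. In A20ZF7 they held 16.98%, 12.9%, 14.1% and 10.49%. *Ccl3* shifted toward macrophage-like barcodes, which held 18.3% in WT and 24.9% in A20ZF7. Stromal barcodes held between 14.3% (*Ccl20* in WT) and 29.6% (*Ccl5* in A20ZF7) of the UMIs of each member.

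WT barcodes with 1 hashtag could be given to a mouse, which is the only view of animal-to-animal spread here. HTODemux called 5803 and 6859 barcodes for the 2 hashtags and left 13639 uncalled, so each value covers a part of the cells. T cell levels of mouse 1 and mouse 2 were 126 and 105 CPM for *Ccl3*, 1346 and 1198 CPM for *Ccl4*, and 6314 and 5758 CPM for *Ccl5*. *Xcl1* was 374 and 443 CPM, far above the 49.0 CPM of the A20ZF7 library in both mice. *Ccl20* was 27.8 and 45.5 CPM and *Cxcl3* 13.9 and 13.6 CPM, below the A20ZF7 values of 134 and 58.7 CPM. *Cxcl2* was 3.79 and 33.9 CPM, and the A20ZF7 value of 20.1 CPM lies between the mice.

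In smaller groups the mice differed more. *Ccl20* in Th17-like barcodes was 20.1 CPM (1 UMI in 50 barcodes) in mouse 1 and 503 CPM (35 UMIs in 70 barcodes) in mouse 2, so the WT level of this group rests on mouse 2 and the A20ZF7 level of 200.4 CPM lies between. *Cxcl2* in macrophage-like barcodes was 503 and 223 CPM, a spread that also holds the A20ZF7 value. *Ccl3* was 284 and 54.4 CPM, and *Ccl5* 111 and 957 CPM, in dendritic-like barcodes of 29 and 33 cells. *Ccl4* in the same barcodes was 3412 and 2665 CPM, and *Ccl5* in CD8 T-like barcodes 8946 and 8916 CPM.

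**Figure D4:**
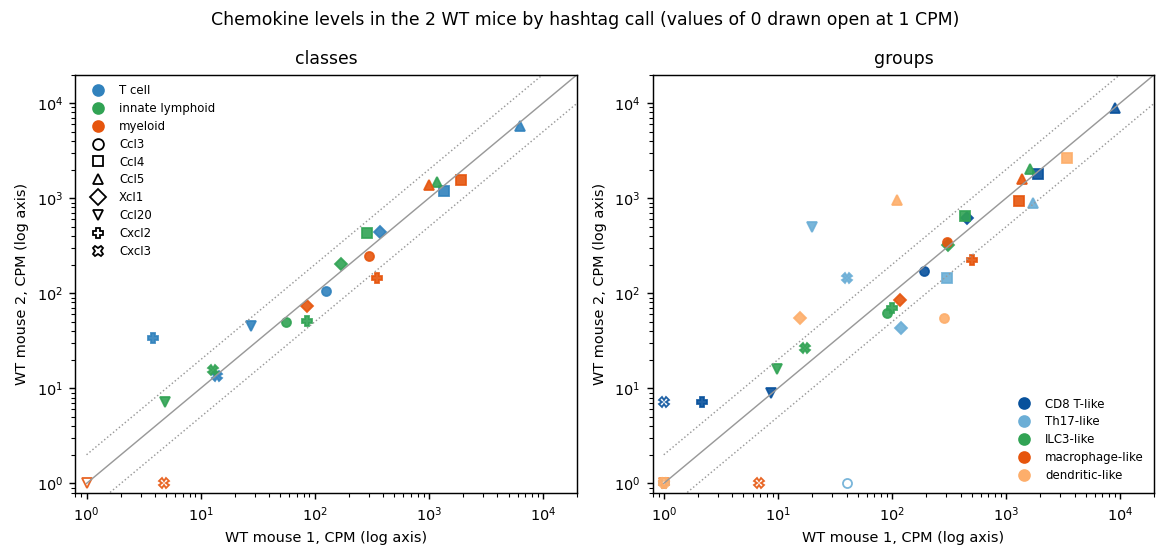
CPM of each chemokine in WT mouse 1 (x) and WT mouse 2 (y), both on log axes, by class (left) and cell group (right), with the diagonal and dotted 2-fold lines; values of 0 are drawn open at 1 CPM. *Ccl3*, *Ccl4*, *Ccl5* and *Xcl1* of T cells lie within 2-fold, while *Ccl20* of Th17-like barcodes (20.1 and 503 CPM) and *Ccl5* of dendritic-like barcodes (111 and 957 CPM) lie far from the diagonal.

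Some members were found in the same barcodes. In thinned WT T cell barcodes, *Ccl4* was found in 80.2% of the 101 barcodes with *Ccl3* and in 16.1% of the others, and *Ccl5* in 91.3% of the 424 with *Ccl4* and in 35.5% of the others. *Xcl1* was found in 25.2% of those with *Ccl4* and in 10.6% of the others. In A20ZF7, *Ccl4* was found in 46.9% of 254 barcodes with *Ccl3* and 10.1% of the others, and *Ccl5* in 89.5% of 1375 with *Ccl4* and 38.1% of the others. *Xcl1* was found in 2.69% of A20ZF7 barcodes with *Ccl4* and 1.41% of the others. Within CD8 T-like barcodes, where cell type varies less, *Ccl4* was found in 79.8% of WT barcodes with *Ccl3* and 23.5% of the others, and in 58.8% and 25.8% in A20ZF7. *Xcl1* was found there in 25.2% of WT barcodes with *Ccl4* and 14.4% of the others, but in 4.34% and 4.58% in A20ZF7. Stromal barcodes paired these genes too. There *Ccl4* was found in 44.4% of WT barcodes with *Ccl3* and 2.57% of the others, and in 31.4% and 5.165% in A20ZF7. *Ccl5* was found in 60.2% of WT stromal barcodes with *Ccl4* and 8.04% of the others.

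*Ccl20* and *Cxcl3* were found together in few barcodes. Of 17 WT T cell barcodes with *Ccl20*, 3 also had *Cxcl3*, and of 531 A20ZF7 barcodes 38 did (7.16%, against 1.95% of the others). Within A20ZF7 Th17-like barcodes *Cxcl3* was found in 7.61% of 289 barcodes with *Ccl20* and 3.55% of the others, and within stromal barcodes in 2.46% of 203 and 0.681% of the others. *Ccl5* was found in 0 of the 17 WT and 166 of the 531 A20ZF7 barcodes with *Ccl20* (31.3%), beside 46.1% and 43.7% of all thinned T cell barcodes. Within A20ZF7 Th17-like barcodes it was found in 32.5% of the 289 with *Ccl20* and in 33.0% of all. Among A20ZF7 stromal barcodes the shares were 27.1% of the 203 with *Ccl20* and 27.1% of all. Deeper or mixed barcodes can share more genes, and these shares carry no test.

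**Figure D5:**
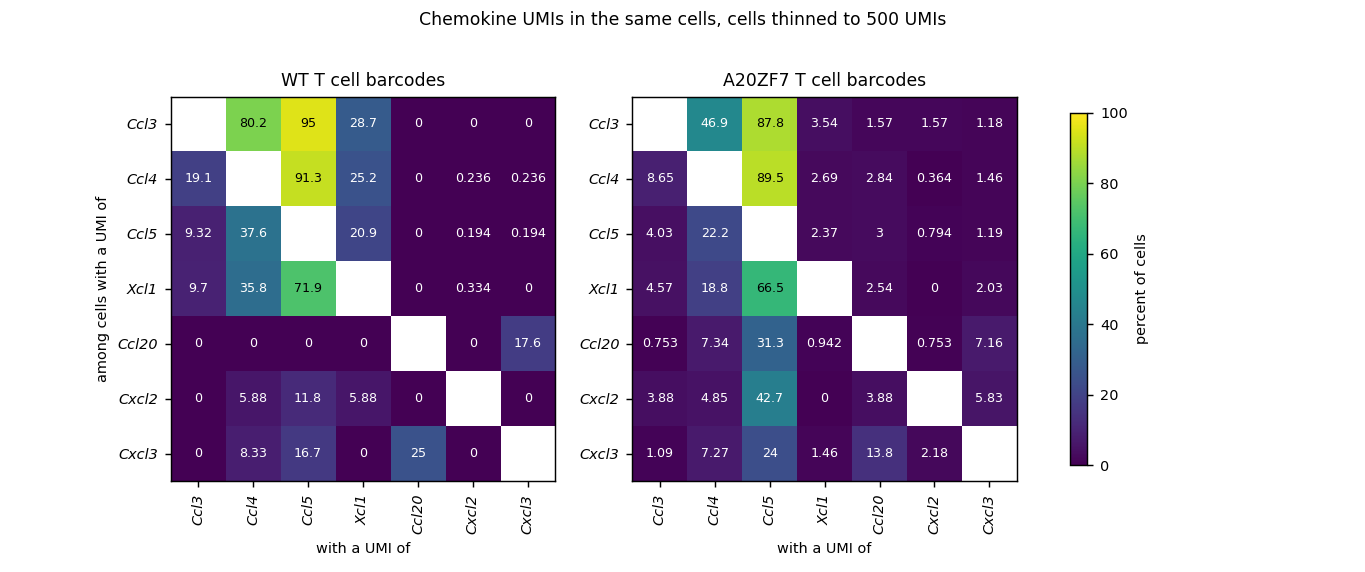
Percent of T cell barcodes with a UMI of the column gene among those with a UMI of the row gene, after thinning to 500 UMIs, for WT (left) and A20ZF7 (right), on a color scale from 0 to 100. *Ccl3*, *Ccl4* and *Ccl5* share barcodes in both libraries (80.2% and 46.9% of *Ccl3* barcodes have *Ccl4*), and *Xcl1* is found in at most 3.54% of the barcodes with any other member in A20ZF7.

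Genes with the most similar pattern were ranked by Pearson r of log2(CPM + 20) over 19 clusters in both genotypes (38 points of 2 libraries, 4484 genes), which is a description without a p. Only clusters with at least 100 cells in each library were used. The dendritic-like cluster, with 90 WT cells and the highest *Ccl4* level, was thus left out. *Ccl5* was most like *Gm2682* (r = 0.929), *Eomes* (0.918) and *Gzmk* (0.911), and *Xcl1* most like *Tbx21* (0.863), *Il12rb2* (0.850) and *Hsph1* (0.828). *Ccl20* was most like *Tnfsf8* (0.8998), *Cxcl3* (0.895) and *Il17a* (0.864), and *Cxcl3* most like *Ccl20*, *Tnfsf8* (0.840) and *Stx11* (0.799). *Ccl3* was most like the myeloid genes *Itgax* (0.926), *Ncf1* (0.859) and *Tyrobp* (0.849), *Ccl4* most like *Epsti1* (0.889), *Tagap* (0.820) and *Bcl2l11* (0.807), and *Cxcl2* most like *Cd83* (0.840), *Fcgr3* (0.816) and *Aoah* (0.811). *Ccl20* and *Cxcl3* thus named each other, and no other pair of members did.

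Among the receptors, *Ccr6*, which binds *Ccl20*, was 22.7 CPM in WT and 58.2 CPM in A20ZF7 T cell barcodes, a ratio of 2.57, and 6.77 and 34.8 CPM in myeloid barcodes, from 4 and 86 UMIs. *Ccr1* was 3.17 and 30.5 CPM in T cell barcodes, a ratio of 9.61 from 7 WT UMIs, and 44.0 and 55.4 CPM in myeloid barcodes. Both were also at least 2-fold higher in stromal barcodes, with ratios of 4.70 for *Ccr6* and 8.96 for *Ccr1*, and the part of this background was not tested. *Xcr1*, the receptor of *Xcl1*, had 2 WT and 46 A20ZF7 UMIs in macrophage-like barcodes and none in dendritic-like barcodes. *Cxcr2*, which marks neutrophils, had at most 6 UMIs in any class, and the scavenging receptor *Ackr1* was found mostly in stromal barcodes (26.3 and 18.6 CPM).

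Other chemokines, a list of 29, gave 16 genes with enough UMIs in T cell barcodes, of which 5 were higher in A20ZF7 (*Ccl2*, *Ccl8*, *Cxcl5*, *Cxcl13*, *Cxcl16*) and 1 lower (*Ccl1*). Over all genes tested there, 5.41% were higher and 1.75% lower. The 5 had at most 7.76 CPM in either library and rest on 1 to 6 WT UMIs. All 5 lay under their stromal levels, which were between 23.5 and 95.3 CPM in A20ZF7, and the part of this background was not tested. *Ccl1*, a ligand of *Ccr8* made by activated T cells, was 14.5 CPM in WT and 3.17 CPM in A20ZF7 T cell barcodes (ratio 0.219) and 16.8 and 7.52 CPM in innate lymphoid barcodes (ratio 0.447). In innate lymphoid barcodes *Ccl8* and *Pf4* were higher, from 5 and 6 WT UMIs. Their A20ZF7 levels (6.23 and 4.73 CPM) lay under the stromal ones (23.5 and 7.60 CPM). In myeloid barcodes 5 of 19 were higher, against 8.38% of all genes tested there. They were *Cxcl13*, which attracts B cells (8.46 and 66.7 CPM), *Ccl22* (5.08 and 34.3 CPM), *Ccl17* (3.38 and 30.7 CPM), *Ccl25* and *Cxcl5*. *Ccl22* and *Ccl17* are both ligands of *Ccr4*. In that order the 5 genes rest on 5, 3, 2, 3 and 2 WT UMIs. The A20ZF7 levels of *Cxcl13* and *Cxcl5* lay under the stromal ones (84.3 and 50.8 CPM), and the part of this background was not tested. *Ccl6* (391 and 149.5 CPM), *Ccl9* (59.2 and 27.9 CPM) and *Ccl24* (84.6 and 23.8 CPM) were lower.

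A list of 19 NF-κB targets other than chemokines was counted the same way. In T cell barcodes *Bcl3*, *Il1b* and *Ier3* were at least 2-fold higher in A20ZF7 and *Tnf* and *Csf2* lower, and the same 5 genes passed in innate lymphoid barcodes. *Il1b* had 0 WT and 65 A20ZF7 UMIs in T cell barcodes, and 1 and 20 in innate lymphoid barcodes. *Ier3* was 7.3 and 19.3 CPM in T cell barcodes and 5.6 and 17.2 CPM in innate lymphoid barcodes. Both genes lay under their stromal levels, which were 14.0 and 13.65 CPM for *Il1b* and 144.6 and 129.5 CPM for *Ier3*. In myeloid barcodes *Traf1* was higher (54.2 and 143 CPM) and *Csf2* lower (42.3 and 12.1 CPM). *Tnf* was 29.0 and 12.2 CPM in T cell barcodes, and *Csf2*, which encodes GM-CSF, was 239.6 and 84.4 CPM in innate lymphoid barcodes. *Bcl3* was 19.95 and 44.8 CPM in T cell barcodes. The median ratio of the list was 1.33 in T cell, 1.15 in innate lymphoid and 1.22 in myeloid barcodes, beside 1.08, 1.01 and 1.17 for all genes. In stromal barcodes it was 1.81 beside 0.958, with 6 of 19 genes higher past 2-fold and 1 lower. The lower one was *Csf2* (28.2 and 11.2 CPM, ratio 0.398). *Csf2* in T cell barcodes (22.7 and 7.96 CPM) lay under these stromal levels, and the myeloid A20ZF7 value of 12.1 CPM lay near the stromal one. *Nfkb1* (ratio 1.89, 1.77–2.02) and *Nfkbia* (ratio 1.36, 1.29–1.44), both feedback targets, were higher within 2-fold in T cell barcodes. The stromal ratios were 2.55 for *Bcl3*, 2.10 for *Nfkb1* and 1.61 for *Nfkbia*, and the part of this background was not tested.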

How the data were processed

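Cells of the small intestinal lamina propria were measured by 10x 5′ single-cell RNA-Seq in 1 WT and 1 A20ZF7 library. The deposited values were raw UMI counts per gene and barcode that the authors made with Cell Ranger on mm10. The labels give version 7.1 and the headers of the gene expression matrices 8.0.0. The matrices hold 576003 barcodes and 35289432 UMIs (WT) and 612069 barcodes and 54587004 UMIs (A20ZF7), and these depths set the counting intervals.

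Cells were barcodes above an order-of-magnitude threshold (675.1 UMIs in WT, 396.5 in A20ZF7) with 200 to 2500 genes and at most 15% mitochondrial UMIs. WT barcodes called for both hashtags were removed. The antibody matrix of the A20ZF7 library was byte for byte that of WT and was not used. HTODemux (quantile 0.99) gave WT barcodes to mice, with weak separation of the hashtags. Scrublet scores were used as an alternative only. Both libraries were clustered together in Seurat 5.3.0 (R 4.3.3) without integration, on 2000 variable genes without the 7 members, with 30 components and a resolution of 0.8, after regressing cell-cycle scores. The 26 clusters were named from marker lists, with score limits set after the clusters were seen. Summed UMIs were divided by the total over the 31950 shared gene IDs (1905 of which carry different symbols) to give CPM, in Python 3.11.15 with scipy 1.17.1. Intervals are 95%: exact Poisson for levels, exact conditional for ratios and exact binomial (Clopper-Pearson) for shares.

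No test was made between genotypes, since each had 1 library. A member was counted past 2-fold with at least 20 UMIs in the higher genotype, and a count under 3 UMIs in the lower one was set to 3. The scripts were tested on simulated data. The named genes are the 7 members, receptors of theirs, and those genes past 2-fold in the lists of other chemokines and NF-κB targets; *Nfkb1*, *Nfkbia*, *Ackr1* and *Cxcr2* are named as list members, and the immediate-early list was added after values were seen. The members and lists were chosen with earlier results of these data known. Alternatives covered the cell threshold, doublets, totals, background, clustering, class definition, fold, WT mouse and hashtag calls. One item of the lists is not reported here.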

Additional observations from a re-analysis of the deposited data

Results flagged for a closer look

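*Ccl3* and *Ccl4* were lower in A20ZF7 than in WT T cell barcodes and higher in B or plasma cell and epithelial barcodes. For *Ccl3* the ratio was 0.402 in T cell barcodes, 2.98 in B or plasma cell barcodes and 9.08 in epithelial barcodes. For *Ccl4* it was 0.331, 2.65 and 4.93. In innate lymphoid and myeloid barcodes the ratios were 0.529 and 0.737 for *Ccl3* and 0.780 and 0.699 for *Ccl4*. *Ccl3* rests on 12 WT and 75 A20ZF7 UMIs in B or plasma cell barcodes and on 12 and 21 in epithelial barcodes, most of which came from different clusters in the 2 genotypes. After thinning, 2.59% of WT and 6.89% of A20ZF7 B or plasma cell barcodes had a *Ccl4* UMI, beside 2.92% and 5.35% of stromal barcodes. For *Ccl3* the shares were 0.690% and 0.931%, beside 0.813% and 0.705%. Epithelial shares were 3.08% and 8.03% for *Ccl4* and 0.343% and 2.92% for *Ccl3*. The part of this background and the differences between classes were not tested.

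Chemokine UMIs were also found in 2 clusters that the marker lists left unnamed. One (26 WT and 938 A20ZF7 barcodes), in which T cell genes appear beside pancreatic enzyme and defensin genes, had 1971 CPM of *Ccl5* in WT and 4784 CPM in A20ZF7. In A20ZF7 it also had 408.7 CPM of *Ccl4* and 116.4 CPM of *Ccl20*. The other (25 and 70 barcodes), with mast cell and glial genes, had 478 CPM of *Ccl3* and 2748 CPM of *Ccl4* in A20ZF7.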

How the results depend on the processing

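The main counts of members past 2-fold were 5 in T cell, 4 in innate lymphoid and 4 in myeloid barcodes. With A20ZF7 clusters weighted by WT shares of UMIs, chosen after seeing the data, the T cell count was 1, and the part of the class make-up was not tested. A fold of 3 left 2 innate lymphoid members, and classes from the marker UMIs of each barcode left 1 myeloid member, where fewer UMIs were counted. Leaving out 1 WT mouse, which leaves out the uncalled WT barcodes too, gave 5 to 6 members in T cell, 3 to 5 in innate lymphoid and 3 to 3 in myeloid barcodes. With uncalled barcodes kept, also chosen after seeing the data, the counts were 5, 4 and 4. With the stromal level subtracted, 2 ratios reversed: *Ccl20* in innate lymphoid barcodes (0.666) and *Ccl5* in myeloid barcodes (0.2355). *Cxcl3* in innate lymphoid barcodes, not past 2-fold before, went from 1.268 to 0.0595. Its A20ZF7 level lay under the stromal one and was set to 3 UMIs, so 0.0595 depends on that floor. The *Xcl1* ratio stayed between 0.0954 and 0.207 in T cell and between 0.137 and 0.299 in innate lymphoid barcodes over 17 alternatives each. Subtracting the empty-droplet level gave no value for *Cxcl2* in T cell barcodes and turned innate lymphoid *Ccl4* from 0.780 to 7.12. That WT *Ccl4* level was 1.04 times the droplet level, so little was left of it. It also ended the myeloid *Xcl1* call (0.291 to 0.884) and left *Ccl5* ratios of 1185 (innate lymphoid) and 100.2 (myeloid). The WT levels behind these *Xcl1* and *Ccl5* ratios lay under the droplet level and were set to 3 UMIs. The 3 ratios thus depend on that floor and are not measured ones. No paired analysis was possible because each genotype has 1 library. Depth limits *Ccl20* and *Cxcl3* in WT, with 154 and 102 UMIs in all cells.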
